A study of Homo sapiens with 30 samples.

Results

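The late change in cells treated with MLN4924 was measured by setting A375 cells after 24 h of the compound against A375 cells after 8 h of it. The groups were chosen from the sample titles. Each held 3 arrays, so the comparison rested on 6 of the 30 arrays of the series. A375, an established human line, comes from a melanoma and carries an activating mutation of BRAF. Treated cells received MLN4924 at 650 nM and control cells received DMSO at 0.065%, each for 1, 2, 4, 8 or 24 h, with 3 arrays per group. The same interval in the vehicle arm, 3 DMSO arrays of 24 h against 3 of 8 h, served as background. All groups were the same cell line, and no other agent or genetic change is named in the labels. Whether replicates came from separate cultures is not stated there, and the p-values therefore reflect no more than the scatter of these samples, part of which may be technical.

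MLN4924 (pevonedistat) blocks the enzyme that activates NEDD8, a small ubiquitin-like protein. NEDD8 is normally attached to cullins, the scaffolds of the cullin-RING ubiquitin ligases, and switches these ligases on. Proteins they mark for degradation include the replication licensing factor CDT1, the antioxidant regulator NRF2, the cell cycle inhibitors p21 and p27 and the NF-kB inhibitor IkB. Blocking the pathway in tumour cells is known for stabilized CDT1, repeated firing of replication origins, DNA damage and arrest of the cell cycle.

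Between 8 and 24 h of MLN4924 the transcripts of mitosis fell almost as a block, from HMMR and CCNB1 to PLK1. Targets of the tumour suppressor p53 rose, led by GDF15. HMOX1, an NRF2 target that had been high at 8 h, fell most of all the genes named here, and IL24, a cytokine gene that had been low at 8 h, rose to a signal above that of every vehicle array. Of 19775 genes tested with limma, 4881 (24.7%) were called at an adjusted p under 0.05, which is the call used throughout. They divided into 2291 up (11.6%) and 2590 down (13.1%), and 170 rose and 233 fell at least 2-fold. On 17% of genes the 3 arrays of 24 h lay above the 3 of 8 h, and on 18.7% they lay below. Calls were more frequent among genes of higher signal: 4999 of 10847 were called with genes of low signal left out. Most gene lists used below hold mainly genes above the median signal, so the 24.7% of all genes is a low mark for them.

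Fewer genes were called in vehicle cells over the same interval. There 2425 genes (12.3%) were called, 1451 up (7.34%) and 974 down (4.93%), and 42 rose and 9 fell at least 2-fold. Scaling each array to its own median in place of quantile normalization moved the vehicle split from 59.8% up to 80% up (1713 up, 429 down). The difference of the changes, treated minus vehicle, was called for 3849 genes (19.5%), 1625 up (8.22%) and 2224 down (11.2%). Of the genes up with MLN4924, 369 were also up with DMSO and 180 were down with it. Of those down with MLN4924, 359 were also down with DMSO and 379 were up. The arms shared no arrays.

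Every log2 change given here is a difference of mean log2(signal + 32) with 3 arrays per group, which understates the change of dim genes. Signals are quantile-normalized probe set signals on a linear scale, and they are not compared between genes. The median deposited signal of an array lay between 33.6 and 37.6 in the treated groups and between 35.8 and 44 in the vehicle groups. The ratio of 3' to 5' signal, a measure of RNA integrity, lay between 1.144 and 1.43 for ACTB and between 0.8614 and 0.9166 for GAPDH over these 12 arrays. The largest and smallest ACTB ratios came from 8 h groups, and the ranges of the groups overlapped. The probe set with the highest mean signal stood for each gene. The mean of all probe sets of a gene gave changes over 1.5 times smaller, in the same direction, for a group of genes that included BUB1 (-0.78), H2AX (-0.71), MSH6 (-0.38), IL17RD (-1.76), TNC (-0.88), ERBB3 (-0.34), TFAP2B (-0.45), S100B (-0.45), PRR11 (-1.11), GDF15 (1.85), DUSP1 (0.88), SLC30A1 (0.87), REL (0.44), ERN1 (0.37) and DCAF4 (0.35). Gene by gene, the smallest treated change over all alternatives was 0.72 for ACTA2, -0.36 for ITGB3, -0.43 for IGFBP5, -1.39 for SPRY4-IT1 and -0.55 for CTSZ. Other named genes reached smaller values, among them NR4A1 (0.08) and CAND1 (-0.13).

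**Figure D1:**
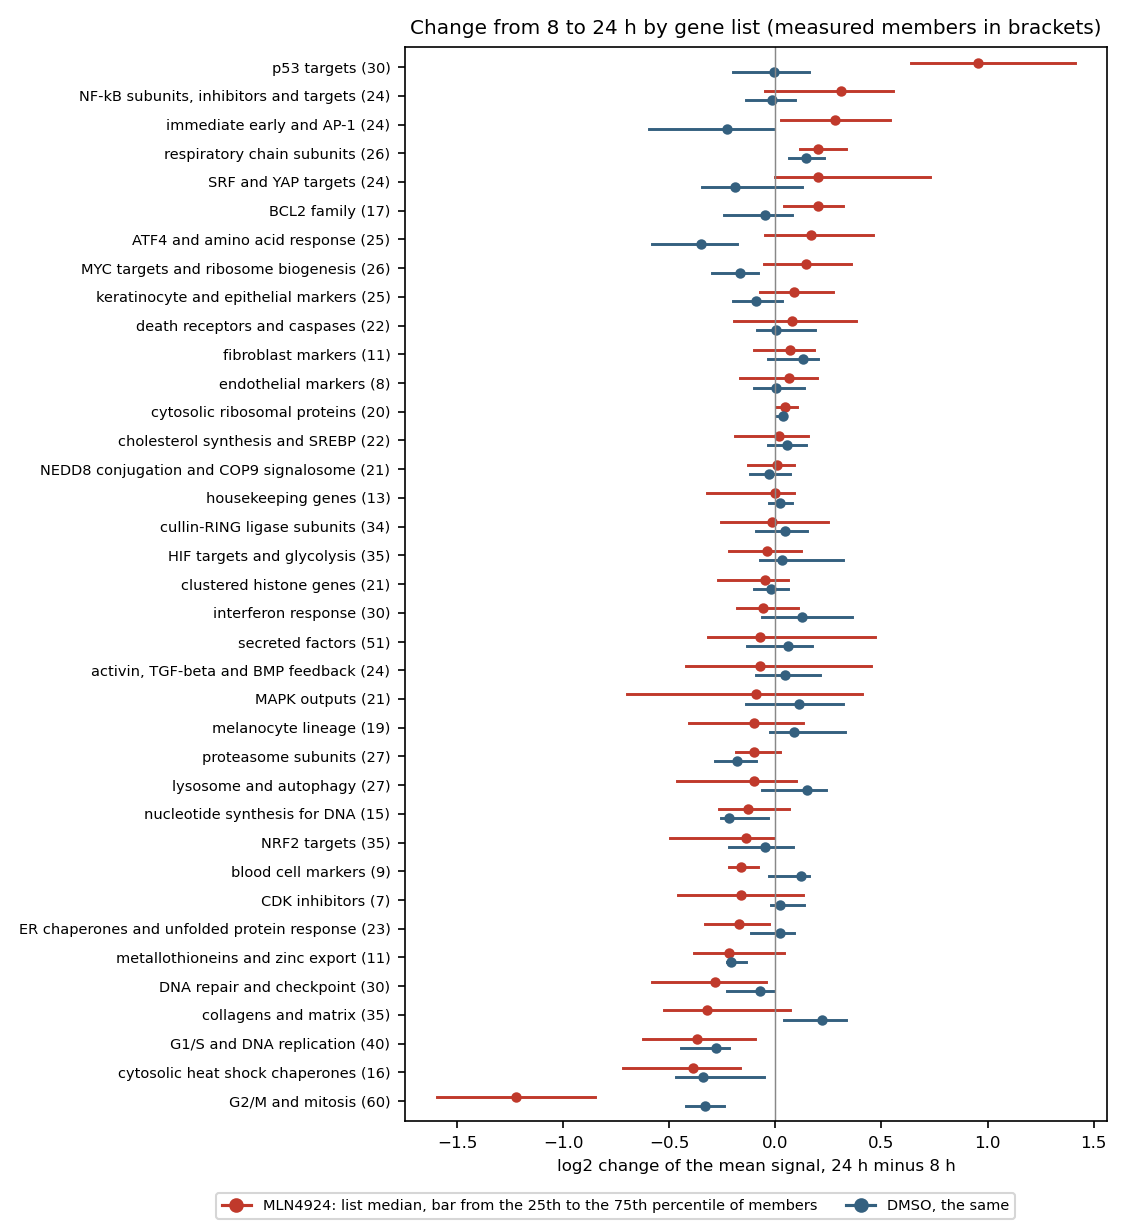
Median log2 change from 8 to 24 h (x axis, log2 of signal + 32) of each gene list (y axis, number of measured genes in brackets) in MLN4924-treated cells (red) and DMSO cells (blue), with bars from the 25th to the 75th percentile of members. The mitosis list lies far to the left in treated cells (-1.22, against -0.33 with DMSO) and the p53 targets to the right (0.95, against 0.00).

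The mitosis genes were the most uniform group. All 60 listed genes were measured, and 58 fell, 0 rose and 2 were not called, with a median log2 change of -1.22 beside -0.01 over all genes. For 59 of them the arrays of 24 h all lay below those of 8 h, and 38 fell at least 2-fold. With DMSO 42 of the 60 fell and 0 rose, with a median of -0.33. The fall was larger in treated than in vehicle cells for 51 of the 60 by the test of the difference, and smaller for 0. In bulk RNA, fewer cells in mitosis and less of a transcript in each cell cannot be told apart.

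Many promoters of this group are known to carry a CHR element (cell cycle genes homology region) and CCAAT boxes, which take part in the cell cycle control of the genes. The stretches of 150 bases before the start site are shown for 4 of the members that fell strongly. These elements were more frequent in the group than over all promoters, although not all of its promoters held them. They are from RefSeq on GRCh38.p14, 5′ to 3′ on the strand of the gene: HMMR at chr5:163460482-163460631 (plus strand), PLK1 at chr16:23678739-23678888 (plus), CCNB1 at chr5:69167000-69167149 (plus) and ASPM at chr1:197146670-197146819 (minus). Capitals mark TTTGAA (the CHR letters) and CCAAT on either strand, so TTCAAA and ATTGG are the same letters read from the other strand.
HMMR: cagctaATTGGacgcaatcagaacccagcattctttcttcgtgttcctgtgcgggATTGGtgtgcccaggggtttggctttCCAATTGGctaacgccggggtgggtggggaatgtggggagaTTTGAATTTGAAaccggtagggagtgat
PLK1: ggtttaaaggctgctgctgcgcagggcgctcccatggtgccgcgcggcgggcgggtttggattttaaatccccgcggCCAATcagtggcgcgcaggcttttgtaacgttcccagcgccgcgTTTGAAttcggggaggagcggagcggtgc
CCNB1: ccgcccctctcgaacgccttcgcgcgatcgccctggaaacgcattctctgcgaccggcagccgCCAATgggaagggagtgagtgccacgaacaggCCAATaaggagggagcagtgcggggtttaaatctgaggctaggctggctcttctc
ASPM: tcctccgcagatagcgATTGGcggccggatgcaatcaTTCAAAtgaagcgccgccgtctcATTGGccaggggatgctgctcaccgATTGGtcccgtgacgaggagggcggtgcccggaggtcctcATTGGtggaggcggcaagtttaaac

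HMMR held 2 adjacent CHR matches and 4 CCAAT matches, 2 of which overlap in the run CCAATTGG. PLK1 held 1 of each, ASPM 1 CHR and 4 CCAAT matches, and CCNB1 2 CCAAT matches and no CHR match in this window. A promoter entry was found for 51 of the 60 mitosis genes, and 250 bases before the start were searched on both strands. The CHR letters were present in 27 of the 51 (52.9%), against 10.8% of 15384 promoters of tested genes. CCAAT was present in 38 (74.5%), against 33.7%, and both in 24 (47.1%), against 4.06%. A match is a description of letters and does not show a bound site.

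HMMR, which encodes a hyaluronan receptor that binds spindle microtubules, read 1566, 1761 and 1765 on the arrays of 8 h and 220, 253 and 171 on those of 24 h. All 24 h arrays were far below all 8 h arrays. The log2 change was -2.82 (SE 0.10, limma adjusted p = 6.93e-16), 7.07-fold on the scale with 32 added. With DMSO its mean signal was 1893 at 8 h and 1667 at 24 h, a change of -0.18 (SE 0.10) that was not called (adjusted p = 0.342), and the arms differed by -2.64 (adjusted p = 3.6e-12). CCNB1, the cyclin B1 gene whose product drives entry into mitosis with CDK1, read 3465, 3386 and 3594 at 8 h and 787, 754 and 717 at 24 h. The groups were far apart and tight, with a log2 change of -2.16 (SE 0.06, limma adjusted p = 1.14e-18). CCNB1 also fell with DMSO, by 0.44 (SE 0.06), and the difference between the arms was -1.73 (limma adjusted p = 1.07e-13).

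PLK1, the polo-like kinase of spindle assembly, read 350, 311 and 258 at 8 h and 48.1, 47.6 and 38.9 at 24 h. Its 8 h arrays spread more than those of CCNB1 in proportion, but none came near the 24 h values (-2.13, SE 0.11, limma adjusted p = 3.22e-13). ASPM, which organizes spindle poles, read 2151, 2239 and 2234 at 8 h and 501, 486 and 485 at 24 h, without overlap. It fell by 2.10 (SE 0.05, limma adjusted p = 1.54e-19) and by 0.27 with DMSO. TOP2A, the topoisomerase that untangles sister chromatids, fell by 1.91, from 2687, 2492 and 2657 to 677, 683 and 650.

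Kinesin motor genes fell (KIF20A by 2.41, KIF14 by 1.78, KIF11 by 1.72), as did kinase genes (AURKA by 1.91, CDK1 by 1.71, TTK by 1.61) and the spindle checkpoint gene BUB1 (by 1.95). CDC20, an activator of the anaphase-promoting complex, fell by 1.75, and FOXM1, a transcription factor of this programme, by 1.18. The proliferation marker MKI67 fell by 1.04. CDK1 had no called change with DMSO (0.08), and its mean signal in treated cells went from 3941 at 8 h to 1188 at 24 h. Smaller falls were those of BUB3 (-0.36) and NUSAP1 (-0.40), and the smallest change of any member was -0.05. Across the whole time course, mean HMMR signal in treated cells stayed between 1674 and 1775 from 1 to 8 h and was 215 at 24 h. The mean of CCNB1 lay between 3150 and 3482 from 1 to 8 h and was 753 at 24 h.

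**Figure D2:**
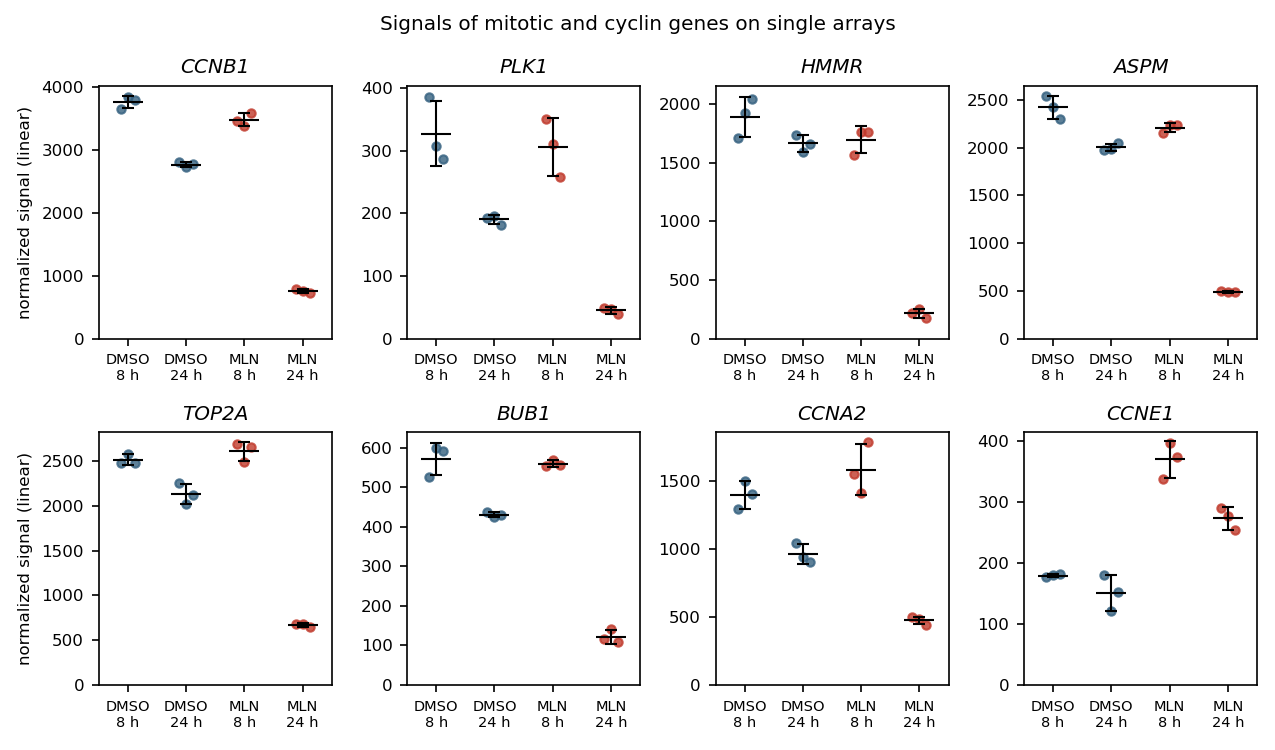
Normalized signal (linear, from 0) of 8 cell cycle genes on single arrays (points) with the mean and SD (black, n = 3) for DMSO (blue) and MLN4924 (red) at 8 and 24 h. CCNB1, PLK1, HMMR, ASPM, TOP2A, BUB1 and CCNA2 have their lowest values on the 3 MLN4924 arrays of 24 h, whereas CCNE1 stays above its DMSO arrays at 24 h.

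Genes that start and carry out DNA replication (the G1/S list) had a smaller median change, and genes fell in both arms. Of 40 listed genes 25 fell, 2 rose and 13 were not called, with a median of -0.37. With DMSO 23 fell and 0 rose (median -0.28). The difference between the arms was called in both directions, 9 up and 9 down. CCNA2, cyclin A2, read 1554, 1413 and 1791 at 8 h and 497, 487 and 445 at 24 h, which separates the groups clearly (-1.67, SE 0.09, limma adjusted p = 1.35e-12). The arms differed for it by -1.14. UHRF1, which maintains DNA methylation at replication forks, fell by 0.98, the clamp loader gene RFC4 by 0.92 and the helicase gene MCM6 by 0.92. CCND1, the cyclin D1 gene downstream of BRAF, fell by 0.98 to a mean of 1249, still above the DMSO mean of 997 at 24 h.

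Some genes of replication licensing did not follow. CDC6, which loads the replicative helicase, read 1220, 981 and 1015 at 8 h and 1126, 1133 and 1177 at 24 h. These groups overlapped and the change of 0.10 was not called (adjusted p = 0.538). With DMSO CDC6 fell by 0.73 (SE 0.09, limma adjusted p = 8.97e-06), and the arms differed by 0.83 (adjusted p = 5.34e-05). E2F7, a repressor of E2F targets, and DTL, the substrate receptor through which a cullin 4 ligase marks CDT1, were the 2 genes of the list that rose, by 0.81 and 0.47. CDT1 itself read 681, 459 and 692 at 8 h and 451, 536 and 479 at 24 h, with overlap and no call (-0.29, SE 0.22, adjusted p = 0.418). CCNE1, cyclin E1, fell by 0.39 (SE 0.09, limma adjusted p = 0.00152), from signals of 338 to 398 to signals of 254 to 291, without overlap. Its fall was not distinguished from the -0.22 with DMSO (adjusted p = 0.426 for the difference), and its call was lost when all its probe sets were averaged (adjusted p up to 0.0738 over all alternatives). E2F letters (TTTCCCGC, TTTGGCGC, TTTCGCGC or TTTGCCGC, both strands) were present in 13 of 34 promoters of this list (38.2%) against 3.54% of all, and the CHR letters in 0.

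Of 30 measured genes of DNA repair and checkpoints 17 fell and 1 rose (median -0.29), and with DMSO 4 fell and 2 rose. The mismatch repair gene MSH6 fell by 0.96 (SE 0.09, limma adjusted p = 1.71e-08), the glycosylase gene NEIL3 by 0.93 and RAD54B, of homologous recombination, by 0.85. The checkpoint kinase gene CHEK1 fell by 0.72 and BRCA1 by 0.55. ATR, the kinase that senses stalled forks, was the 1 member that rose (0.33). The difference between the arms was called for 10 of the 30, each time lower in treated cells. Among 15 genes of nucleotide synthesis 6 fell and 2 rose (53.3%, beside 24.7% of all genes). The count that rose was 1 without MLN4924 24 h replicate 2 or 3 or without MLN4924 8 h replicate 2 or 3. RRM2B, a p53-controlled subunit of ribonucleotide reductase, rose from 406, 362 and 517 to 1219, 1279 and 1235 without overlap (1.49, SE 0.14, limma adjusted p = 7.19e-09), while the cell cycle subunit RRM2 fell by 0.17. Of 21 measured clustered or variant histone genes 3 fell and 2 rose (23.8%, beside 24.7% of all genes). Leaving out any 1 of the 6 arrays left 0 or 1 that rose, and 5 fell without MLN4924 8 h replicate 2. H2AX, the histone phosphorylated at DNA breaks, fell by 1.30, and its mean also went down with DMSO, from 1237 at 8 h to 719 at 24 h. The copies of clustered histone genes are alike, so their probe sets can share signal.

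Most targets of p53 rose. Of 30 measured targets 24 rose, 2 fell and 4 were not called, and the median was 0.95. Vehicle cells had 3 up and 7 down with a median of 0.00. The difference between the arms was up for 24 and down for 2. The arrays of 24 h lay wholly above those of 8 h for 25 of the 30, and 14 rose at least 2-fold.

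GDF15, a stress-induced cytokine of the TGF-beta family, read 402, 405 and 336 at 8 h and 8238, 7834 and 8374 at 24 h. The lowest array of 24 h was many times the highest of 8 h, and no other gene named here rose as much. The log2 change was 4.31 (SE 0.13, limma adjusted p = 1.7e-17), 19.9-fold on the scale with 32 added. With DMSO the means were 45.5 and 62.6, and the change was not called (adjusted p = 0.183). The 3 probe sets of GDF15 were all called up, but their changes ran from 0.38 to 4.31, and without _x_at and _s_at probe sets the value was 0.38.

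CDKN1A encodes p21, which stops cyclin-dependent kinases and is itself a substrate of cullin-RING ligases. It read 737, 789 and 813 at 8 h and 3412, 3252 and 3529 at 24 h, with a wide gap between the groups (2.08, SE 0.13, limma adjusted p = 1.46e-11). Its DMSO means were 293 and 309. GADD45A, a growth arrest gene, rose from 1998, 2045 and 1799 to 6519, 7631 and 7008 (1.84, SE 0.10, limma adjusted p = 6.22e-13). In vehicle cells it fell by 0.53, so the arms moved apart by 2.37. MDM2, the ubiquitin ligase that degrades p53, rose from 2320, 1982 and 2121 to 5494, 5650 and 4842 (1.30, SE 0.10, limma adjusted p = 1.51e-10), and all 10 of its probe sets were called up.

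The other p53 targets that rose span its known branches. DDB2 (1.76) and XPC (1.16) recognize damaged DNA in nucleotide excision repair. ZMAT3 (1.75) binds RNA, SESN1 (1.25) restrains mTOR signalling, and TP53INP1 (1.36) links p53 to autophagy and apoptosis. SFN, which encodes 14-3-3 sigma and holds cells in G2, read 433, 388 and 411 at 8 h and 1205, 1233 and 1465 at 24 h, again without overlap (1.59, SE 0.10, limma adjusted p = 9.01e-12). PPM1D, a phosphatase that limits the p53 response, rose by 1.05. CCNG2 (-0.66) and PERP (-0.35) were the members that fell.

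Of 7 measured genes of cyclin-dependent kinase inhibitors, CDKN1A and CDKN2A rose and CDKN3, CDKN1C and CDKN1B fell. CDKN1B, the p27 gene, read 905, 912 and 842 at 8 h and 717, 671 and 721 at 24 h (-0.32, SE 0.07, limma adjusted p = 0.00144), whereas it rose by 0.24 with DMSO. CDKN2A, which encodes p16 and p14ARF, changed by 0.40 (adjusted p = 0.013), but the call was lost without MLN4924 24 h replicate 3 or without MLN4924 8 h replicate 2 (adjusted p up to 0.122 over all alternatives).

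Death receptor genes that are p53 targets rose. FAS read 452, 489 and 465 at 8 h and 1311, 1302 and 1339 at 24 h, with tight groups far apart (1.43, SE 0.07, limma adjusted p = 5.43e-14). TNFRSF10A and TNFRSF10B, the receptors of TRAIL, rose by 0.98 and 0.76. In all 7 of 22 measured genes of death receptors and caspases rose and 4 fell (50%, beside 24.7% of all genes). The receptor gene TNFRSF21 fell by 1.09. Without _x_at and _s_at probe sets FAS had an adjusted p of 0.061 and a change of 0.43. Of 17 BCL2 family genes 4 rose and 3 fell (41.2%, beside 24.7% of all genes). Members that promote and members that prevent apoptosis were on both sides. The pore-forming members BAK1 (0.93) and BAX (0.62) rose, as did the protective members BCL2L1 (0.39, limma adjusted p = 0.0465) and BCL2L2 (0.32). The protective genes BCL2 (-0.58) and BCL2A1 (-0.42) and the death-promoting BID (-0.28) fell. BCL2 also fell with DMSO (-0.31), the difference was not called (adjusted p = 0.234), and 1 of its 4 probe sets was called. Without MLN4924 8 h replicate 1, 2 genes of this family rose. PMAIP1, which encodes NOXA, had means of 1979 and 2075, and its change of 0.07 was not called, while it fell by 0.53 with DMSO.

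**Figure D3:**
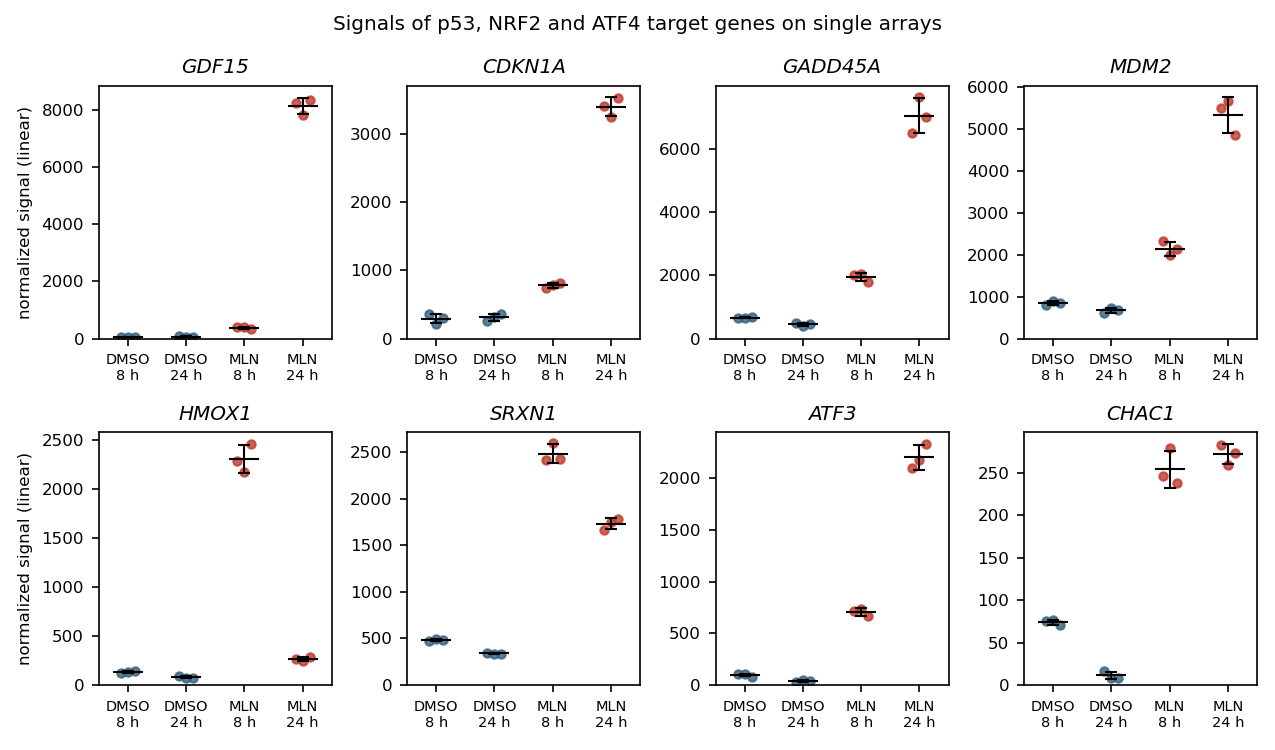
Normalized signal (linear, from 0) of 4 p53 targets (top), 2 NRF2 targets and 2 ATF4 targets (bottom) on single arrays (points) with the mean and SD (black, n = 3). GDF15, CDKN1A, GADD45A, MDM2 and ATF3 are highest on the MLN4924 arrays of 24 h, HMOX1 and SRXN1 on those of 8 h, and CHAC1 is at similar signals on both.

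The antioxidant genes under NRF2 were split. Of 35 measured targets 13 fell, 3 rose and 19 were not called (45.7% called, beside 24.7% of all genes). The median was -0.14, beside -0.05 with DMSO, where 8 fell and 4 rose. HMOX1, the gene of haem oxygenase 1, which breaks down haem, read 2285, 2176 and 2460 at 8 h and 269, 241 and 289 at 24 h. It fell by 2.97 on the log2 scale (SE 0.10, limma adjusted p = 7.48e-17), or 7.85-fold. With DMSO the HMOX1 mean also went down, from 135 at 8 h to 79.6 at 24 h. Its treated mean at 24 h, 266, was still above both. Over the time course its treated mean was 335 at 1 h, 1809 at 2 h, 3734 at 4 h and 2307 at 8 h, so the fall had begun before 8 h.

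SRXN1, which encodes sulfiredoxin, fell much less, from 2420, 2597 and 2427 to 1669, 1747 and 1782 (-0.51, SE 0.07, limma adjusted p = 6.95e-06). Vehicle cells changed by -0.47, and the difference was not called (adjusted p = 0.85). The glutathione synthesis gene GCLM fell by 0.79 and with DMSO fell by 0.98 (adjusted p = 0.333 for the difference), and the cystine transporter gene SLC7A11 by 0.82, beside an uncalled -0.18. CBR3, a carbonyl reductase gene, fell by 1.20 and OSGIN1, an oxidative stress growth inhibitor gene, by 0.89. BLVRB, biliverdin reductase B, rose from 152, 178 and 151 to 362, 369 and 374 (1.06, SE 0.12, limma adjusted p = 1.15e-07). AKR1B10, an aldo-keto reductase gene, rose by 0.75. NQO1 read 7131, 6988 and 7008 at 8 h and 7834, 7367 and 7441 at 24 h and was not called (0.10, adjusted p = 0.327), and its 3 probe sets disagreed, with 1 called up and 1 called down.

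Targets of ATF4, the factor of the amino acid and integrated stress response, mostly fell in vehicle cells, and some rose in treated cells. With MLN4924 8 of 25 rose and 2 fell (40%, beside 24.7% of all genes), with a median of 0.17. With DMSO 0 rose and 16 fell (median -0.35). The difference was called up for 15 of the 25 and down for 1. ATF3, a stress transcription factor gene, read 713, 736 and 665 at 8 h and 2095, 2178 and 2326 at 24 h, without overlap (1.60, SE 0.11, limma adjusted p = 3.95e-11). It fell by 0.87 with DMSO. DDIT3, which encodes CHOP, rose by 1.16, TRIB3, a pseudokinase gene, by 1.02 and NUPR1 by 0.98.

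CHAC1, which degrades glutathione, read 246, 279 and 238 at 8 h and 283, 260 and 274 at 24 h, with overlap and no call (0.09, SE 0.08, adjusted p = 0.54). With DMSO its mean went from 74.1 to 11.2, a fall of 1.30 (SE 0.08, limma adjusted p = 3.7e-10), and the arms differed by 1.39. The amino acid transporter gene SLC7A5 had the same form, with an uncalled -0.17 in treated cells and a fall of 1.27 with DMSO. ASNS, asparagine synthetase, changed by 0.15 (adjusted p = 0.108) in treated cells and fell by 0.72 with DMSO.

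Cytosolic heat shock chaperones fell in both arms, 11 of 16 with MLN4924 (2 rose, median -0.39) and 9 of 16 with DMSO (0 rose, median -0.34). The co-chaperone gene DNAJB1 fell from 2043, 1788 and 2000 to 872, 822 and 856 (-1.16, SE 0.07, limma adjusted p = 1.72e-12), DNAJA1 by 1.15 and DNAJB4 by 1.05. The vehicle changes of these 3 genes were -0.64, -0.57 and -0.46, and the arms differed for each of them (-0.52, -0.58 and -0.58). HSPA4L rose by 0.87. Of 23 genes of the endoplasmic reticulum and the unfolded protein response 7 fell and 3 rose (43.5%, beside 24.7% of all genes). All 23 lay above the median signal, where calls were more frequent. PDIA4, a protein disulfide isomerase gene, fell by 0.73, and ERN1, which encodes the stress sensor IRE1, rose by 0.79. For XBP1 (0.54) 1 of 2 probe sets was called up and 1 down, so no direction is given.

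In A375 the MAP kinase pathway is driven by mutant BRAF, and its feedback genes report its output. Of 21 measured outputs 10 fell and 7 rose (81%, beside 24.7% of all genes). IL17RD, a membrane inhibitor of this pathway, read 906, 759 and 1050 at 8 h and 106, 97.6 and 85.6 at 24 h. The 24 h arrays were all far lower (-2.86, SE 0.16, limma adjusted p = 1.04e-12), and with DMSO the means were 157 and 145. In treated cells the mean rose from 131 at 1 h to 230, 713 and 905 at 2, 4 and 8 h before it dropped to 96.3 at 24 h. SPRY4 fell by 0.98 and rose by 0.84 with DMSO, and DUSP6, an ERK phosphatase gene, fell by 0.86 (SE 0.13, limma adjusted p = 9.98e-06), from 3381, 2947 and 3369 to 1979, 1598 and 1719. Other phosphatase genes of the list rose, DUSP1 from 371, 361 and 349 to 1247, 1107 and 1243 (1.65, SE 0.10, limma adjusted p = 9.92e-12) and DUSP5 by 1.28.

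Immediate early and AP-1 genes rose more often than they fell, 10 up and 1 down of 24 (45.8%, beside 24.7% of all genes). Their median was 0.28, and 2 were down without MLN4924 24 h replicate 3 or without MLN4924 8 h replicate 1. Vehicle cells had 2 up and 10 down (median -0.23). The difference was called up for 14 and down for 0. MYC read 460, 443 and 427 at 8 h and 812, 797 and 794 at 24 h (0.81, SE 0.09, limma adjusted p = 2.1e-07), and its vehicle means were 156 and 157. JUND rose by 0.85 and JUN by 0.49. FOS read 122, 205 and 151 at 8 h and 244, 195 and 270 at 24 h, with overlap, and was not called (0.50, adjusted p = 0.0728). EGR1 was not called either (0.14, adjusted p = 0.588).

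Of 24 targets of the actin-responsive factors SRF and YAP, 9 rose and 1 fell (41.7%, beside 24.7% of all genes). Their median was 0.20, and 3 rose and 6 fell with DMSO. FHL2, a LIM domain gene, read 623, 611 and 565 at 8 h and 2065, 1953 and 2120 at 24 h, and rose by 1.72 (SE 0.09, limma adjusted p = 2.6e-13). ANKRD1 rose by 1.32, CCN1 by 1.25 and CCN2 by 0.76, and both CCN genes fell with DMSO (-0.58 and -1.09). ACTA2, smooth muscle actin, rose by 2.00, but 1 of its 3 probe sets was called and the lowest change among them was -0.01. Among 26 MYC targets and ribosome biogenesis genes 10 rose and 3 fell (50%, beside 24.7% of all genes). Their median was 0.15, beside -0.17 with DMSO, where 0 rose and 8 fell. Without MLN4924 8 h replicate 3, 1 of these genes fell with MLN4924. The processing factor gene RRP12 rose by 0.58. The probe set named for ribosomal RNA precursor, RNA45SN5, rose from 213, 186 and 173 to 853, 967 and 1181 (2.20, SE 0.19, limma adjusted p = 2.95e-09).

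IL24, which encodes a cytokine of the IL-10 family, had the second largest rise among the named genes, after GDF15. It read 50.3, 54.2 and 64.9 at 8 h and 1523, 1454 and 1539 at 24 h, so that the late arrays were far above every early one. The log2 change was 4.12 (SE 0.09, limma adjusted p = 1.54e-19). Its vehicle means were 176 at 8 h and 250 at 24 h, so the treated arrays of 8 h lay under the vehicle and those of 24 h above it. The treated mean was 159 at 1 h, 140 at 2 h and 82.6 at 4 h. IL6, an inflammatory cytokine gene, read 29.2, 31.6 and 28.4 at 8 h and 210, 223 and 209 at 24 h (1.99, SE 0.11, limma adjusted p = 9.99e-13), and its means in every other group lay between 22.3 and 31.6.

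Among 51 measured secreted factors 15 rose and 13 fell (54.9%, beside 24.7% of all genes). The growth factor and cytokine genes HBEGF (1.26), IL11 (1.12) and LIF (0.54) rose, as did DKK1 (1.15), an antagonist of WNT signalling that fell by 1.08 with DMSO. INHBA, which encodes an activin subunit, rose in both arms, by 1.25 and by 1.04, and its treated mean at 24 h (1458) was below that of vehicle (3455). The matrix metalloproteinase gene MMP2 fell by 0.87. Of 24 genes of NF-kB subunits, inhibitors and targets 11 rose and 2 fell (54.2%, beside 24.7% of all genes). Their median was 0.31, and 1 fell without MLN4924 24 h replicate 1 or without MLN4924 8 h replicate 3. With DMSO 1 rose and 1 fell. TNFAIP3, which encodes the feedback inhibitor A20, rose from 110, 89.4 and 130 to 292, 271 and 336 (1.23, SE 0.14, limma adjusted p = 3.49e-07). The subunit gene REL rose by 0.73, and CXCL8 rose in both arms (0.52 and 0.67, adjusted p = 0.416 for the difference). Of 30 interferon response genes 4 rose and 2 fell, and the 20% called lay under the 24.7% of all genes. Without MLN4924 24 h replicate 1, 1 of them fell. TAP1, a peptide transporter gene of antigen presentation, rose by 0.77.

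**Figure D4:**
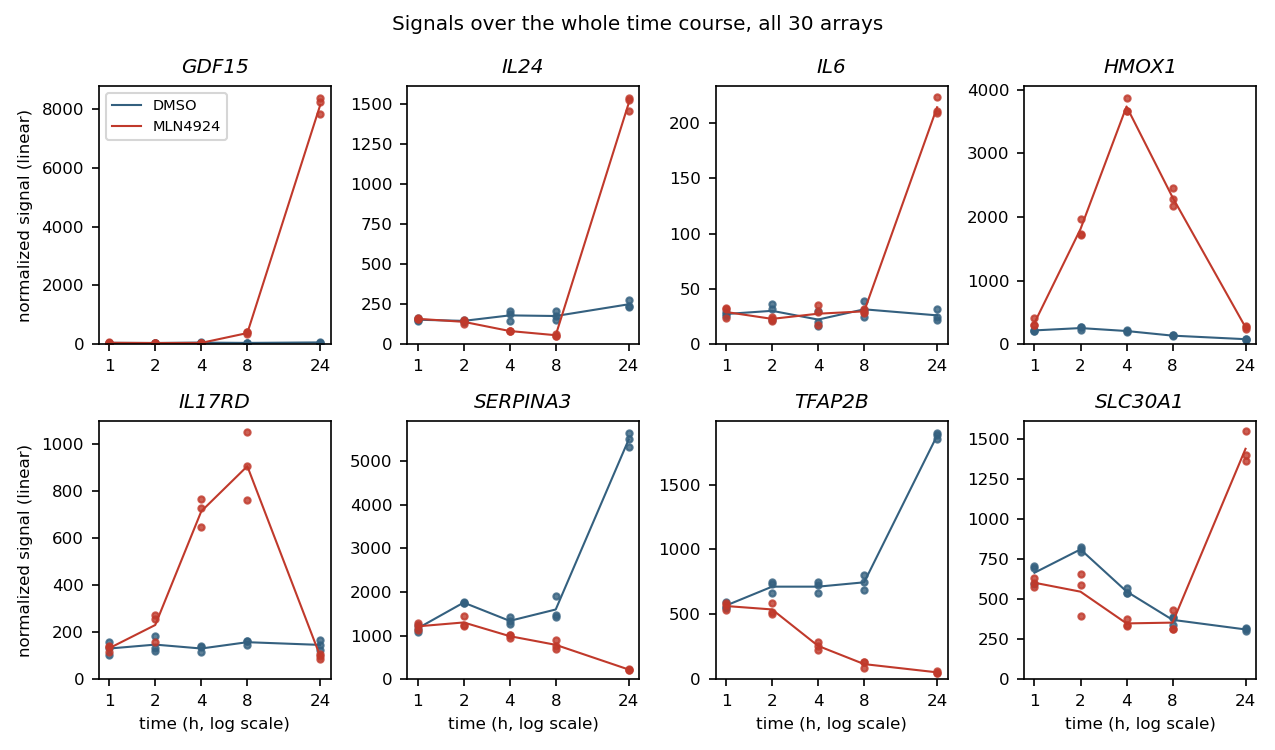
Normalized signal (linear, from 0) of 8 genes over the whole time course (x axis, hours on a log scale) in DMSO (blue) and MLN4924 (red), with 1 point per array and lines through the means of 3. GDF15, IL24, IL6 and SLC30A1 are highest at 24 h of MLN4924, HMOX1 and IL17RD peak at 4 or 8 h, and SERPINA3 and TFAP2B rise with DMSO while they fall with MLN4924.

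Many matrix genes fell in treated cells, and some rose in vehicle cells. Of 35 measured collagens and matrix genes 18 fell and 2 rose with MLN4924 (median -0.32), and 0 fell and 11 rose with DMSO (median 0.22). The difference was down for 19 and up for 2. Leaving out MLN4924 24 h replicate 1 or 3 or MLN4924 8 h replicate 2 or 3 left 0 or 1 that rose with MLN4924. TNC, tenascin C, read 2398, 1885 and 2532 at 8 h and 507, 531 and 499 at 24 h, without overlap (-2.07, SE 0.11, limma adjusted p = 5.18e-13), and rose by 0.39 with DMSO. The basement membrane collagen gene COL4A1 fell by 1.10, the laminin receptor subunit ITGA6 by 1.33 and SPARC, a collagen-binding protein gene, by 0.78.

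Outside that list, the serpin gene SERPINA3 read 771, 895 and 693 at 8 h and 234, 212 and 212 at 24 h (-1.70, SE 0.10, limma adjusted p = 1.69e-12). In vehicle cells its mean went from 1598 to 5503, a rise of 1.77, and the arms differed by -3.47 (limma adjusted p = 7.48e-15). IGFBP5, which binds insulin-like growth factors, fell from 113, 108 and 121 to 14.5, 15.9 and 5.5 (-1.74, SE 0.13, limma adjusted p = 1.19e-10) and rose by 1.60 with DMSO, although 2 of its 6 probe sets were called. HAPLN1, a hyaluronan link protein gene, fell by 1.92 and rose by 1.06 with DMSO.

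**Figure D5:**
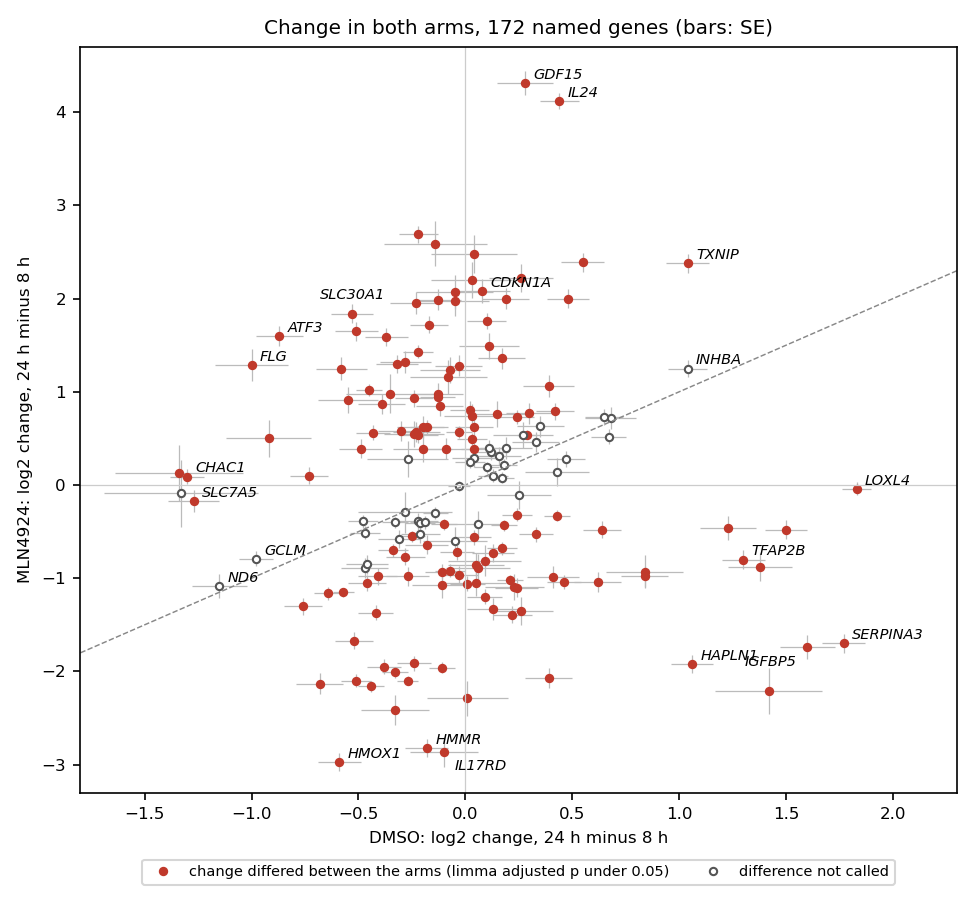
Log2 change from 8 to 24 h with MLN4924 (y axis) against DMSO (x axis) for 172 named genes, with SE bars. Filled points mark the 133 genes whose change differed between the arms (limma adjusted p under 0.05), and the dashed line marks equal change. Most of these genes were chosen for large called changes, so the share of filled points follows in part from that choice. SERPINA3, IGFBP5 and HAPLN1 lie at the lower right, GDF15 and IL24 at the top, and INHBA and GCLM near the line.

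Melanocyte lineage genes were checked both as the identity of the cells and as a group. The pigment cell genes PMEL, MLANA, TYR and TYRP1 had mean signals of at most 50.2 in all 4 groups. The means of the lineage genes SOX10, MITF, PAX3 and ERBB3 were 245 or more in each group. Of 19 measured genes 7 fell and 2 rose with MLN4924 (47.4%, beside 24.7% of all genes). With DMSO 0 fell and 4 rose. ERBB3, a neuregulin receptor gene, read 802, 819 and 767 at 8 h and 395, 345 and 376 at 24 h (-1.04, SE 0.08, limma adjusted p = 9.97e-10), against a rise of 0.46 with DMSO. TFAP2B, a neural crest transcription factor gene, fell by 0.80 from a mean of 116 to 51.9, while it rose by 1.30 to 1877 with DMSO. S100B fell by 0.88 and rose by 1.38 with DMSO. MITF, the master factor of melanocytes, rose by 0.46 (SE 0.11, limma adjusted p = 0.0024), which the test did not distinguish from its 0.33 with DMSO (adjusted p = 0.664). SOX10 was not called (0.28, adjusted p = 0.336).

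Markers of other cell types were called no more often than all genes (24.7%). Of 11 fibroblast markers 0 rose and 1 fell (PDGFRA), of 9 blood markers 0 rose and 1 fell (LYZ), and of 8 endothelial markers 1 rose (CDH5) and 0 fell. The summed signal of the blood list was 548 to 637 at 8 h and 380 to 444 at 24 h, that of the fibroblast list 386 to 441 and 382 to 417, and that of the endothelial list 146 to 183 and 174 to 219. Of 25 keratinocyte and epithelial markers 4 rose (SFN, which is also a p53 target, FLG, KRT18 and KRT8) and 2 fell (24%). The summed signal of this list was 8331 to 9164 at 8 h and 10941 to 11973 at 24 h, with DMSO sums of 7344 to 8295 and 7023 to 7401, and the mean of KRT18, a keratin gene, went from 3038 to 4672. The defining epithelial genes EPCAM, CDH1 and KRT19 had means of at most 12.1 in all 4 groups. Without single 8 h arrays the counts of the small lists moved by 1, to 1 fibroblast marker up (without MLN4924 8 h replicate 1 or 2), 1 endothelial marker down (without replicate 2) or 2 up (without replicate 3). The part of such cells in the results was not tested.

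Of the feedback genes of activin, TGF-beta and BMP signalling, 8 of 24 rose and 9 fell (70.8%, beside 24.7% of all genes). TGFBI, a secreted TGF-beta target, fell from 922, 847 and 972 to 331, 354 and 304 (-1.39, SE 0.09, limma adjusted p = 8.42e-12). BAMBI, a decoy receptor gene, fell by 1.02, and FST, the activin antagonist gene, rose by 0.94. Of 27 genes of lysosomes and autophagy 8 fell and 5 rose (48.1%, beside 24.7% of all genes). Of these 27, 26 lay above the median signal, where calls were more frequent. The enzyme genes GLA, alpha-galactosidase (-1.37), and CTSL, cathepsin L (-1.06), fell, and the autophagosome gene GABARAPL1 rose by 1.36.

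Of 11 measured metallothioneins and genes of zinc export 2 rose, 4 fell and 5 were not called (54.5% called, beside 24.7% of all genes). With DMSO 0 were called. SLC30A1, which exports zinc from the cell, read 312, 431 and 315 at 8 h and 1550, 1362 and 1401 at 24 h. The rise was 1.95 (SE 0.12, limma adjusted p = 1.28e-11), with an uncalled -0.23 for DMSO. MTF1, the zinc-sensing factor, rose by 0.57. MT1H, a metallothionein, fell by 0.64, beside an uncalled -0.18 with DMSO (adjusted p = 0.0177 for the difference), and MT1X by 0.53, beside an uncalled -0.21 (adjusted p = 0.0693 for the difference). Metallothionein genes are near-identical, so their probe sets can share signal. Of their 4 calls 2 were left when arrays were centred by their medians and 0 without _x_at and _s_at probe sets.

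The changes of the listed energy genes were small. Of 26 listed respiratory chain subunits 15 rose and 1 fell (61.5%, beside 24.7% of all genes). Their median was 0.20, and 7 rose with DMSO (median 0.14). The 15 became 9 when each array was centred on its median, 8 with only the arrays compared in the fit and 3 when that fit also held the replicate number as a block. The difference between the arms was called for 5 of the 26. Outside this list, the respiratory chain subunit gene ND6 fell from a treated mean of 4470 to 2083 (-1.08, limma adjusted p = 6.88e-07). Its DMSO means were 3708 at 8 h and 1626 at 24 h. Of 35 HIF targets and glycolysis genes 5 rose and 8 fell (37.1%, beside 24.7% of all genes). With DMSO 10 rose and 2 fell. The 8 became 5 without MLN4924 8 h replicate 3 and 2 without _x_at and _s_at probe sets. ALDOC and MXI1 rose alike in both arms (0.72 and 0.68 for ALDOC, 0.73 and 0.65 for MXI1). Of 22 genes of cholesterol synthesis 4 rose and 4 fell (36.4%, beside 24.7% of all genes), and these counts were small and unstable. Without MLN4924 24 h replicate 2 or 3 or MLN4924 8 h replicate 3, 2 rose, and without MLN4924 24 h replicate 1 or 2 or MLN4924 8 h replicate 1 or 3, 1 or 2 fell. Of 27 proteasome subunits 2 rose and 5 fell (25.9%, beside 24.7% of all genes), against 0 and 11 with DMSO.

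The transcripts of the drug's own target were not called. NAE1, a subunit of the NEDD8-activating enzyme, read 3435, 3325 and 3317 at 8 h and 3335, 3362 and 3335 at 24 h (-0.01, SE 0.05, adjusted p = 0.958). UBA3, the catalytic subunit (-0.11, SE 0.15, adjusted p = 0.689), and NEDD8 (0.08, SE 0.06, adjusted p = 0.382) were not called either. Of 21 genes of NEDD8 conjugation and the COP9 signalosome 3 rose and 2 fell (23.8%, beside 24.7% of all genes). Of these 21, 20 lay above the median signal, where calls were more frequent (4999 of 10847 with genes of low signal left out). CAND1, which exchanges cullin substrate receptors, fell by 0.42, with 2 of its 7 probe sets called. Of 34 cullin-RING ligase subunits 9 rose and 10 fell (55.9%, beside 24.7% of all genes), and 5 rose without MLN4924 24 h replicate 1. Of these 34, 31 lay above the median signal. CCNF, a receptor gene that peaks in G2, fell from 242, 202 and 209 to 79.5, 66.1 and 53.3 (-1.35, SE 0.15, limma adjusted p = 1.82e-07), and FBXO5, an inhibitor of the anaphase-promoting complex, by 1.07. DCAF4, a cullin 4 receptor gene, rose by 0.74. Cytosolic ribosomal proteins had 2 of 20 up and 0 down (10%, beside 24.7% of all genes). Housekeeping genes had 2 of 13 up and 2 down (30.8%), with ACTB at 0.02 and GAPDH at 0.12, neither called. The ribosomal count was 1 without MLN4924 24 h replicate 3 or MLN4924 8 h replicate 3 and 0 with median centring. Of the housekeeping genes 1 rose without MLN4924 24 h replicate 2 or 3 or MLN4924 8 h replicate 1 or 3.

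Several of the largest increases fell outside the lists. PLCXD2, a phospholipase-like gene, read 216, 216 and 215 at 8 h and 1595, 1572 and 1531 at 24 h (2.69, SE 0.09, limma adjusted p = 1.36e-16). Only 1 of its 2 probe sets was called, the other changed by -0.44, and their mean gave 1.12. SUGCT rose from 11.5, 8.4 and 12.9 to 278, 192 and 214, and the adhesion gene NECTIN4 from 44.4, 55.6 and 50.5 to 414, 412 and 446. TXNIP, which restrains glucose uptake and thioredoxin, rose by 2.38 with MLN4924 and by 1.04 with DMSO, and the arms differed by 1.34. CCNB1IP1 (2.39), S100P (2.22), TMEM40 (2.07), the long non-coding RNA UCA1 (2.00) and KISS1 (1.97) rose as well. Among decreases outside the lists were KRTAP3-1, which encodes a keratin-associated protein (-2.29, from 140, 238 and 207 to 21.3, 12 and 8.6), PHF19, a Polycomb-associated gene (-2.10), and the mitotic genes DEPDC1 (-2.01) and PRR11 (-1.96). The treated mean of KRTAP3-1 was 51, 153 and 195 at 2, 4 and 8 h and 14 at 24 h, while its vehicle means stayed between 6.8 and 10.6.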

How the data were processed

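RNA of A375 cells was measured on 30 Affymetrix HG-U133 Plus 2.0 arrays. The deposited values are intensities, linear signals of 54675 probe sets, made by the authors with Affymetrix Expression Console per the submitters' processing notes; its version is not given in the sources used here, nor its algorithm. Groups came from the titles.

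Signals were quantile-normalized, 32 was added and log2 taken. Symbols came from the supplied platform annotation, updated by gene identifier (41037 of 41091 probe sets matched); 1801 probe sets with several symbols and 11777 with none stayed unnamed, and control probe sets were left out. The probe set with the highest mean stood for each of 19775 genes. Limma 3.58.1 (R 4.3.3) fitted 1 mean for each group to all 30 arrays together, leaving 20 residual degrees of freedom, with eBayes, two-sided tests and Benjamini-Hochberg adjustment within each of 3 contrasts: treated, vehicle and their difference. The array number limits the precision. Simulated data for the treated contrast held 19775 genes, of which 200 were changed. There 38 of 74 genes changed by 0.5 on the log2 scale were called, 55 of 60 changed by 1 and 66 of 66 changed by 2, with 10 false among 169 calls. Far more genes were called in the measured data (4881), so these shares need not hold there.

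The 37 lists (908 of 1007 memberships measured) were drawn from general knowledge, and members and lists were chosen with earlier results of these data known. Named genes were the top 15 increases and top 15 decreases of called genes with separated arrays and a mean above the median in the higher group, up to 4 such members per list, 5 each way for the other contrasts, and presets. Other list members, and the genes drawn in the figures, were chosen after their values were seen. Promoters came from RefSeq (GRCh38.p14; 15384 genes). Within groups no arrays were identical. Replicate numbers were not used as pairs in the main fit. Deviations of same-numbered arrays correlated at -0.065 to 0.03, which cannot show whether they shared a culture or a day. Alternatives were other scaling, added constants (1 or 64), filtering, probe set choice, fits of only the arrays compared, the replicate number as a block, other variance and adjustment settings and each array left out.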

Additional observations from a re-analysis of the deposited data

Results flagged for a closer look

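The change from 8 to 24 h differed between MLN4924 and DMSO for 3849 of 19775 genes by limma's test of the difference, and for 133 of the 172 named genes. Most named genes were chosen for large called changes, some in the difference itself, so counts among them are not comparable with those over all genes. In 559 genes the arms were called in opposite directions.

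Among named genes, 32 were called in opposite directions and also differed by the test of the difference. Higher in the treated change than in the vehicle change, by the log2 values given, were the stress and p53-linked genes ATF3 (2.47), GADD45A (2.37), SFN (1.96), FAS (1.65), MDM2 (1.62) and TRIB3 (1.47), the immediate early and signalling genes DUSP1 (2.15), CCN1 (1.82) and NR4A1 (1.47), and FLG (2.29), HSPA4L (1.26), ODC1 (0.99) and PSMC3 (0.89). Lower were SPRY4-IT1 (-3.63), SPRY4 (-1.83), SERPINA3 (-3.47), IGFBP5 (-3.34), HAPLN1 (-2.97), TNC (-2.46), CHRDL1 (-1.98), ITGB3 (-1.66) and BAMBI (-1.23). In the melanocyte lineage list S100B (-2.26), TFAP2B (-2.1), ERBB3 (-1.5) and CDH19 (-0.86) were lower. So were CTSZ (-1.77), IFITM1 (-1.69), LYZ (-1.4), INSIG1 (-1.11), IPO8 (-0.76) and CDKN1B (-0.56). SPRY4-IT1 lies within the SPRY4 gene region, and like SPRY4 it fell with MLN4924 (-2.21, with 2 of 2 probe sets called) and rose with DMSO (1.42). The treated fall of IFITM1 was not called without MLN4924 24 h replicate 1 (adjusted p up to 0.0667 over all alternatives), and the opposite direction of NR4A1 rested on 1 probe set. With MLN4924, 3 of the 7 probe sets of ITGB3 and 1 of the 2 of CTSZ were called down.

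Signal was also present in probe sets that no comparison used. Of 11721 probe sets with no symbol 7.8% were called with MLN4924, against 3.68% with DMSO, and of 1801 with several symbols 22.9% were called, against 10.4%.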

How the results depend on the processing

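Leaving out 1 array at a time gave 1995 to 2106 genes up and 2242 to 2391 down with MLN4924, 1105 to 1230 up and 709 to 800 down with DMSO, and 1451 to 1593 up and 1934 to 2135 down for the difference. Median centring left 429 vehicle genes down. Fitting no more than the arrays of each comparison, with fewer residual degrees of freedom, left 843 vehicle genes up and 411 down. The replicate number as a block, which the labels do not state to be a pairing, gave 2277 up and 2576 down with MLN4924 over 30 arrays. Within the arrays of each comparison alone it gave 1294 up and 1441 down with MLN4924 and 0 up and 0 down with DMSO by limma, where 4047 genes had an unadjusted p under 0.05. Of the 158 named genes called in the treated contrast, 128 were called in every alternative that measured them, and 3 changed sign in one. XBP1 was at -0.01 with the mean of all probe sets. When the _x_at and _s_at probe sets were dropped, so that a different probe set represented these genes, treated values were -0.09 for COPS6 and -0.13 for RPS9, vehicle values 0.29 for NR4A1, -0.14 for RPS9 and -0.02 for LYZ, and the difference of NR4A1 was -0.21. The same step ended the treated calls of CAND1 (adjusted p = 0.17), RRP12 (0.0533) and PDIA4 (0.0501), and the block within the arrays of each comparison ended those of BAX (0.053), BCL2 (0.056) and CDKN1B (0.0828). Genes of low signal left out, and 1 or 64 added before the log, kept the counts over all genes within 1.5 times in the 3 contrasts. Of the 74 counts of treated calls up or down in a list, 6, 2 and 0 moved by more than that under these settings, 30 without _x_at and _s_at probe sets, 14 in the fit of the arrays compared, 41 in that fit with the replicate block, and 5 to 11 when 1 treated array was left out. Dim probe sets near background and 3 arrays per group limit all values.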
